A study of Mus musculus with 4 samples.

Results

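The genes encoding the proteins of the cytosolic ribosome were examined in Lgr5-high intestinal stem cells of mice with and without Ifnar1, a chain of the receptor for type I interferon. Members were chosen by symbol alone: Rpl or Rps followed by digits with an optional final a, x or l, together with Rplp0, Rplp1, Rplp2 and Rpsa, without pseudogenes. The RefSeq gene table held 83 such symbols. Rps4l and Rpl6l are listed there as pseudogenes and were left out, which gave 81 protein-coding members. Of these, 80 had a probe named here (Rpl37 had none), and 78 had a probe past the filter on dim signals, 31 of the small and 47 of the large subunit, among 24866 genes tested. Rpl3l and Rpl39l were not well above background. Where a gene had several probes, the brightest on average stood for it.

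Controls carried the Lgr5-EGFP-Ires-CreERT2 knock-in, an allele that places a green fluorescent reporter and an inducible Cre under the Lgr5 locus. The knockout group was Ifnar1-/-:Lgr5-EGFP-Ires-CreERT2. Controls and knockouts alike were given poly(I:C), an artificial double-stranded RNA and strong inducer of interferon, intraperitoneally at 2 mg/kg each day for 1 week before Lgr5-high cells were isolated by flow cytometry, according to the series' design text. The sample labels instead place the cells 1 week after injection, so the interval since the last dose is uncertain. There were 2 samples per group and no group without poly(I:C), so each value below compares genotypes under treatment. Ages, sexes and any pooling of animals are not given in the sources used here. The labels do not state whether replicates are separate animals, so a p-value here covers the spread among these arrays and that spread could be technical.

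A cytosolic ribosome consists of a small subunit, which reads the messenger RNA, and a large subunit, which joins amino acids, each built from ribosomal RNA and a set of proteins made in nearly equal amounts. In the crypt, the rapidly dividing Lgr5 stem cells and their progeny make ribosomes at a high rate. Most mammalian ribosomal protein messages start with a C followed by an uninterrupted run of pyrimidines, the terminal oligopyrimidine tract, through which mTOR and LARP1 adjust their translation together.

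Start sites that carry the tract are shown because the symbol rule did not use it. Of the 78 members, 58 have an entry in the part of the RefSeq promoter table (GRCm38.p6) used here, which leaves out a chromosome. Members on that chromosome count as without an entry. Each sequence below runs 5′ to 3′ on the transcript's strand, with 15 bases before and 15 from the annotated start, and the capitals mark the run of C and T that begins with a C at the start.
Rps6, chr4:86857353-86857382, minus strand: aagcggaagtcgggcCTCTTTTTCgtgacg
Rplp2, chr7:141447636-141447665, plus strand: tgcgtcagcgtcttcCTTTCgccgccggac
Rps27, chr3:90213634-90213663, minus strand: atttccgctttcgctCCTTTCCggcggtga
Rpl15, chr14:18270972-18271001, minus strand: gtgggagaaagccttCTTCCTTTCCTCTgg
Rps18, chr17:33955651-33955680, minus strand: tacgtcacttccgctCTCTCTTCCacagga
Rps21, chr2:180257364-180257393, plus strand: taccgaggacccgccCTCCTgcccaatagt
Rpl35, chr2:39005117-39005146, minus strand: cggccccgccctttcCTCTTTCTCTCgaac

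Such a tract of at least 5 bases stood exactly at the annotated start of 14 of the 58 members (24.1%). The share was 3.01% over all 27025 genes in that part of the table. The length of the tract ran from 5 bases in Rplp2 and Rps21 to 13 in Rpl15. The letters CTTTC on the transcript strand lay within 20 bases either side of the start in 31.0% of members and 6.44% of all genes. They overlap the tract, as in Rplp2 and Rpl15. CCGGAAG, the core of an ETS-family motif, lay on either strand of the 300-base window in 39.7% of members and 9.93% of all genes. The TATA motif TATAAA, sought on either strand of the same window, lay in 12.1% of members and 15.7% of all genes. A match describes letters in the reference. A member without the tract lacks it only at the annotated start.

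Each array had 59305 non-control spots, of which 63.3% to 67.7% were well above background and 0 were saturated. Levels are given as the log2 signal minus the array's 75th percentile, so that 0 is the level of the 75th percentile; the level of one gene's probe cannot be set against that of another gene's probe. The replicate number and the slide went together: the arrays of replicate 1 shared slide 1, and those of replicate 2 shared slide 2. The targeted gene was 3.31-fold lower in the knockout, with Ifnar1 at -0.29 ± 0.11 in control and -2.02 ± 0.37 in knockout (mean ± SD, n = 2). Lgr5, the marker of the sorted cells, was at 2.93 ± 0.16 and 3.13 ± 0.28. The 78 members were well above background on all 4 arrays. In these bulk samples, a change in the mix of sorted cells and a change of RNA per cell cannot be told apart.

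Within each slide, ribosomal protein signals were slightly higher in the knockout for most members, by a small and similar amount. Across the 78 members the median level was 5.998 in control 1 and 6.35 in control 2, and it was 6.14 in knockout 1 and 6.54 in knockout 2. The knockout array was the higher of the pair on each slide, while control 2 lay above knockout 1, so the groups overlapped. The median difference between the groups was 0.17 (log2, 1.12-fold), with 0.20 within replicate 1 and 0.15 within replicate 2, beside a median of 0.02 over all genes tested. By subunit, the median was 0.17 over the 31 small-subunit genes and 0.16 over the 47 large-subunit genes. Of the 78 members, 71 were higher in the knockout in both replicate numbers, where 34.0% of all genes were, and 0 were lower in both, where 27.2% of all genes were. Because members are bright, the same share was taken over the 1589 genes that reach the level attained by 90% of members, themselves included. Of these, 52.6% were higher in both replicate numbers and 25.6% lower in both. The median over the 1519 of them that are not members was 0.08 in replicate 1 and 0.06 in replicate 2.

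**Figure D1:**
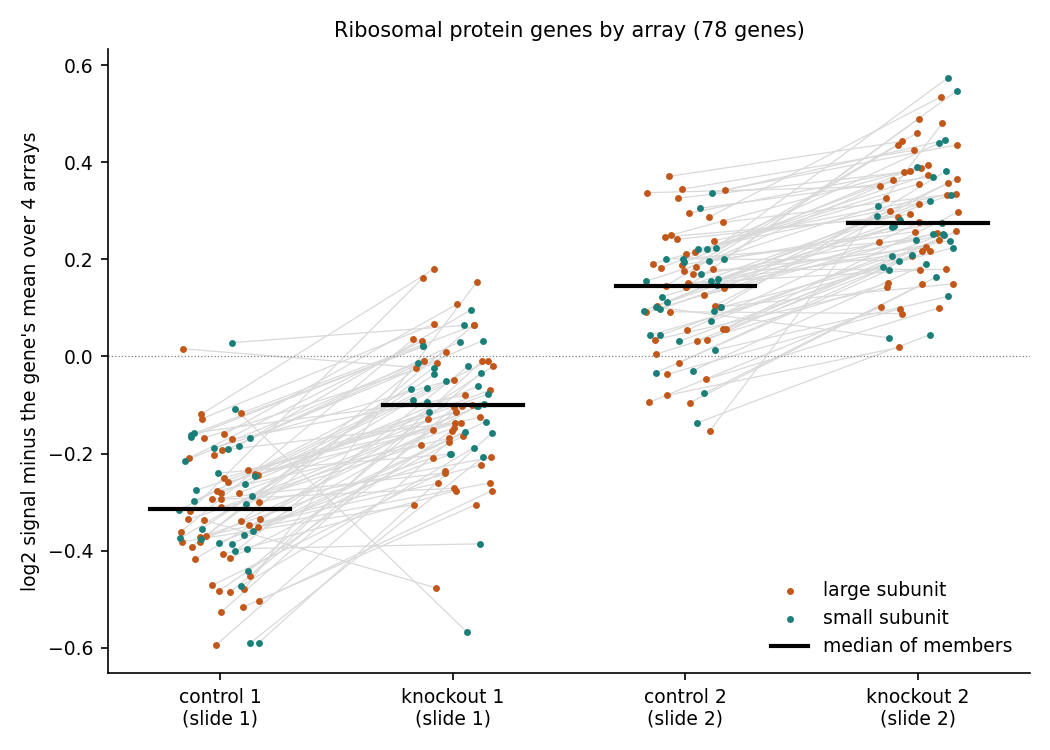
Log2 signal of each of the 78 members minus that gene's mean over the 4 arrays (y axis), by array (x axis). Points are genes coloured by subunit, grey lines join a gene's values on 1 slide, and black bars are medians over members. The arrays step upward from control 1 through knockout 1 and control 2 to knockout 2, an order that 58 of the 78 members follow.

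For most members the slides differed more than the genotypes. Slide 2 lay above slide 1 in both groups for 74 of 78 members, where 45.2% of all genes did so, and the median difference between slides was 0.40 (log2). Among the 1519 genes of similar brightness that are not members, slide 2 was the higher for 1183 in control and for 1179 in knockout. Their median difference between slides was 0.27 in each group. The difference between slides exceeded the difference between groups in 64 members. In the order control 1, knockout 1, control 2, knockout 2, levels climbed step by step in 58. Over members, the slide difference in control correlated with that in knockout at a Pearson r of 0.828, and over all genes at 0.563; the points share their arrays and slides. Without respect to slides, the median SD of a member was 0.32 in control and 0.25 in knockout, each larger than the median difference of 0.17. The direction of the member median therefore rests on the pairing by slide. In group means that leave out 1 array, it was -0.05 without control 1 and -0.01 without knockout 2, and it was 0.39 without control 2 and 0.37 without knockout 1.

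The share of all non-control signal that fell on member probes moved in the same way. It was 3.56% in control 1 and 4.16% in control 2, and it was 4.03% in knockout 1 and 4.57% in knockout 2. Again the knockout was higher within each slide and the groups overlapped. Summed over the representative probes, the member signal was 1.13-fold that of control on slide 1 and 1.099-fold on slide 2.

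No member passed the test over all genes without a slide term. By limma, 0 of 24866 genes were called in either direction at an adjusted p of 0.05 (percent called 0.0), and at an unadjusted p below 0.05 it held 259 higher (1.04%) and 427 lower (1.72%). At that unadjusted level 1 member, Rpl21, was higher (limma across all genes, unadjusted p = 0.0326) and 0 members were lower. With the replicate number, and thus the slide, as a block, limma called 13 genes higher (0.0523%) and 100 lower (0.402%), among them 1 member, again Rpl21. At an unadjusted p under 0.05 in that blocked fit, 36 members were higher and 0 lower, where 7.42% and 4.97% of all genes were. Of the 1519 genes of similar brightness that are not members, 347 were higher and 119 lower at that level. The blocked fit has 1 residual degree of freedom against 2 without the block. The median standard error of a member's difference was 0.07 with the block and 0.26 without. Without the intensity trend in the variance the blocked fit called 0 genes.

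Rpl21, which encodes a protein of the large subunit, rose the most of the members. Its level was 4.67 in control 1 and 4.996 in control 2, and it was 5.30 in knockout 1 and 5.63 in knockout 2. Both knockout arrays lay above both controls, and the difference was 0.63 on each slide. The mean went from 4.83 ± 0.23 to 5.47 ± 0.23 (mean ± SD, n = 2), which is 1.55-fold (limma with the replicate block, SE = 0.07, adjusted p = 0.0456; without the block, adjusted p = 1.0). The gene has 2 dimmer probes. The probe A_52_P653937 differed by 0.89 on slide 1 and 0.17 on slide 2, while A_55_P2056521 differed by -0.20 and -0.16. The probes thus disagreed in direction. With the mean of its probes in place of the brightest, the difference was 0.33 and the blocked call was lost (limma, adjusted p = 0.368), as it was without the intensity trend (adjusted p = 0.530).

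**Figure D2:**
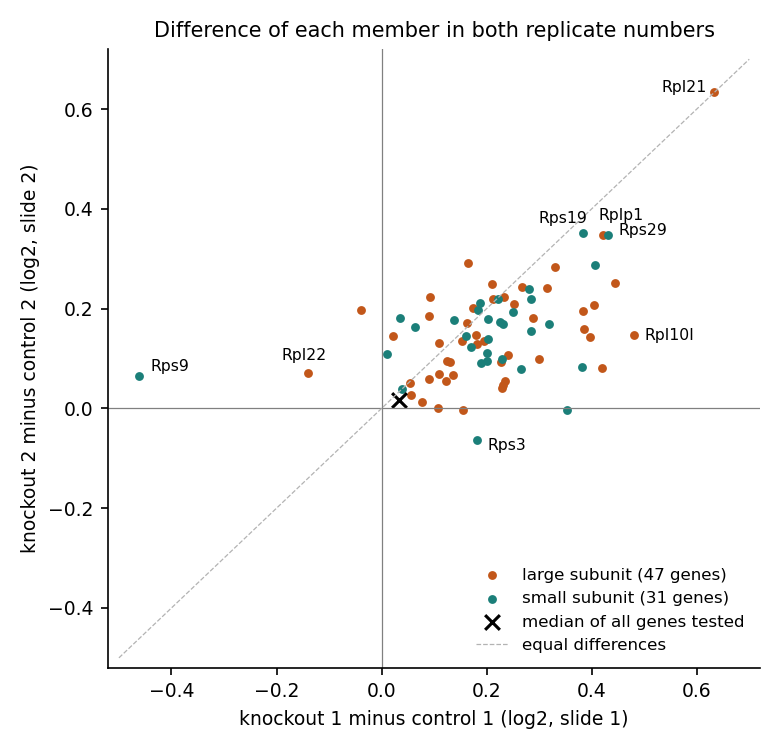
Knockout minus control (log2) on slide 1 (x axis) and on slide 2 (y axis), 1 point per member, coloured by subunit. The cross marks the median of all 24866 genes and the dashed line equal differences. Of 78 points, 71 lie in the upper right quadrant, Rpl21 sits apart at 0.63 on both axes, and Rps9 sits apart at -0.46 on slide 1.

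Among the stalk proteins, which form the flexible arm of the large subunit that recruits elongation factors, Rplp1 was highest in difference. Its level was 3.85 in control 1 and 4.52 in control 2, and it was 4.27 in knockout 1 and 4.87 in knockout 2. The difference was 0.39 (0.42 and 0.35 in replicates 1 and 2; limma with the replicate block, adjusted p = 0.191). Its partner Rplp2 was at 6.67 and 7.17 in the controls and at 6.69 and 7.32 in the knockouts, a difference of 0.08. Rplp0, which anchors both to the ribosome, was at 5.99 and 6.58 in the controls and at 6.12 and 6.67 in the knockouts, a difference of 0.11. By these probes all 3 were higher in the knockout on each slide, with overlapping groups, and none passed the test in either fit. A dimmer probe of Rplp0, A_66_P105288, was lower on each slide (-0.29 and -0.03), and its other probe was higher by 0.08 and 0.09.

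Of the small-subunit proteins with known roles in regulation and disease, none passed either. Rps6, the substrate of S6 kinases downstream of mTOR, was at 6.13 and 6.35 in the controls and at 6.27 and 6.53 in the knockouts, a difference of 0.16. Rps19, the gene most often mutated in Diamond-Blackfan anaemia, was at 2.06 and 2.87 in the controls and at 2.44 and 3.22 in the knockouts, a difference of 0.37 (0.38 and 0.35; limma with the replicate block, adjusted p = 0.262). Rpsa, also described as a laminin receptor, was at 4.90 and 5.25 in the controls and at 5.07 and 5.37 in the knockouts, a difference of 0.15. On each slide the knockout was the higher array for these genes, and in each of them control 2 exceeded knockout 1. Rps27a, made as a fusion with ubiquitin, differed by 0.15 (0.16 and 0.15). Rps4x, an X-linked protein of the small subunit, differed by 0.19 (0.18 and 0.20).

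Rps29, a zinc-binding protein, had the largest difference of the small-subunit genes. It was at 6.43 in control 1 and 7.22 in control 2, and at 6.86 in knockout 1 and 7.57 in knockout 2. The difference was 0.39 (0.43 and 0.35), with an SE of 0.37 without the block and 0.06 with it. It did not pass (limma with the replicate block, adjusted p = 0.119), although that was the smallest adjusted p of the small subunit. Control 2 lay above knockout 1, as for most members.

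Rpl5 and Rpl11, which with the smallest ribosomal RNA of the large subunit bind Mdm2 and tie ribosome assembly to p53, differed little. Rpl5 was at 4.75 and 5.21 in the controls and at 4.85 and 5.28 in the knockouts, a difference of 0.09. Rpl11 was at 3.85 and 4.48 in the controls and at 3.94 and 4.54 in the knockouts, a difference of 0.08, and 1 of its 3 probes was higher in both replicate numbers. Neither difference exceeded its standard error without the block, 0.26 for Rpl5 and 0.31 for Rpl11. Nor did the median difference over members, 0.17, exceed the median standard error without the block, 0.26. With the block the standard errors were 0.07 for Rpl5 and 0.08 for Rpl11. Rpl10, which joins the large subunit late in its assembly, was at 6.66 and 7.11 in the controls and at 6.82 and 7.28 in the knockouts, a difference of 0.17. Rpl3, a protein of the peptidyl transferase centre, was at 5.63 and 6.02 in the controls and at 5.95 and 6.27 in the knockouts, a difference of 0.28 (0.31 and 0.24; limma with the replicate block, adjusted p = 0.261).

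For a pair of large-subunit genes linked to immune responses, the brightest probe stood near 0 and other probes did not. Rpl13a, reported to be released from the ribosome after interferon gamma and to silence inflammatory messages, was at 4.89 and 5.30 in the controls and at 4.996 and 5.30 in the knockouts, a difference of 0.05 that stood at 0.11 in replicate 1 and -0.00013 in replicate 2. With quantile scaling its difference was -0.01. Its 2 other probes were higher in both replicate numbers, A_55_P2052613 by 0.13 and 0.23 and A_55_P2101910 by 0.21 and 0.24. Rpl22, which is dispensable for translation and needed for T cell development, was at 4.92 and 5.63 in the controls and at 4.78 and 5.70 in the knockouts, a difference of -0.03 (-0.14 and 0.07). Its other probe differed by 0.54 and 0.22, and the mean of both probes by 0.17, so the direction for Rpl22 changed with the probe.

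The paralogs with restricted or inducible expression were measured in part. Rps27l, a p53-inducible relative of Rps27, was at 2.45 and 2.28 in the controls and at 2.48 and 2.46 in the knockouts, a difference of 0.11 (0.04 and 0.18). Rps27 itself differed by 0.24 (0.32 and 0.17), and its 4 probes were all higher in both replicate numbers. Rpl10l, the testis paralog of Rpl10, was the dimmest member at -3.53 and -3.20 in the controls and -3.05 and -3.06 in the knockouts. The Rpl10l groups did not overlap, but its difference of 0.31 had an SE of 0.31 even with the block. Rpl39, whose testis paralog Rpl39l was not well above background, differed by 0.14 (0.23 and 0.05). Rpl3l, the striated muscle paralog of Rpl3, was likewise not well above background.

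Members with unequal replicates were few. Rps9, a small-subunit protein, had the widest gap: it was at 8.06 in control 1 and 8.48 in control 2, and at 7.60 in knockout 1 and 8.54 in knockout 2. Its difference was -0.46 in replicate 1 and 0.07 in replicate 2, so knockout 1 alone stood low, and it rests on 1 probe. Rps21, at the tract shown above, was at 4.07 and 4.65 in the controls and at 4.42 and 4.64 in the knockouts, with differences of 0.35 and -0.0039. Rpl23, also reported to bind Mdm2, was at 6.65 and 7.59 in the controls and at 7.07 and 7.67 in the knockouts, with differences of 0.42 and 0.08. Those 3 had the differences farthest apart between replicates.

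In all, 7 members lay on different sides in the replicate numbers, namely Rps9, Rpl22, Rps3, Rps21, Rpl12, Rpl13a and Rpl6, with group differences from -0.20 to 0.17. Of the 78, 69 had a difference between 0.05 and 0.35. In 13 the knockout arrays both exceeded the control arrays, where 14.5% of all genes did. Among them were Rpl10l, Rpl13, Rpl15, Rpl18, Rpl21, Rpl27a, Rpl28, Rpl32l, Rps7, Rps18, Rps25 and Rps27l. Their number, unlike the count of 71, was near the background. Rpl15 was typical of them, at 6.10 and 6.16 in the controls and at 6.36 and 6.40 in the knockouts, a difference of 0.26; its slides lay close together. The difference was larger in replicate 1 than in replicate 2 for 59 members. Over the 78 members the differences of both replicates correlated at a Pearson r of 0.492, and at 0.405 over the 76 without Rpl21 and Rps9. The same r was 0.378 over all genes and 0.749 over the 1519 genes of similar brightness that are not members.

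**Figure D3:**
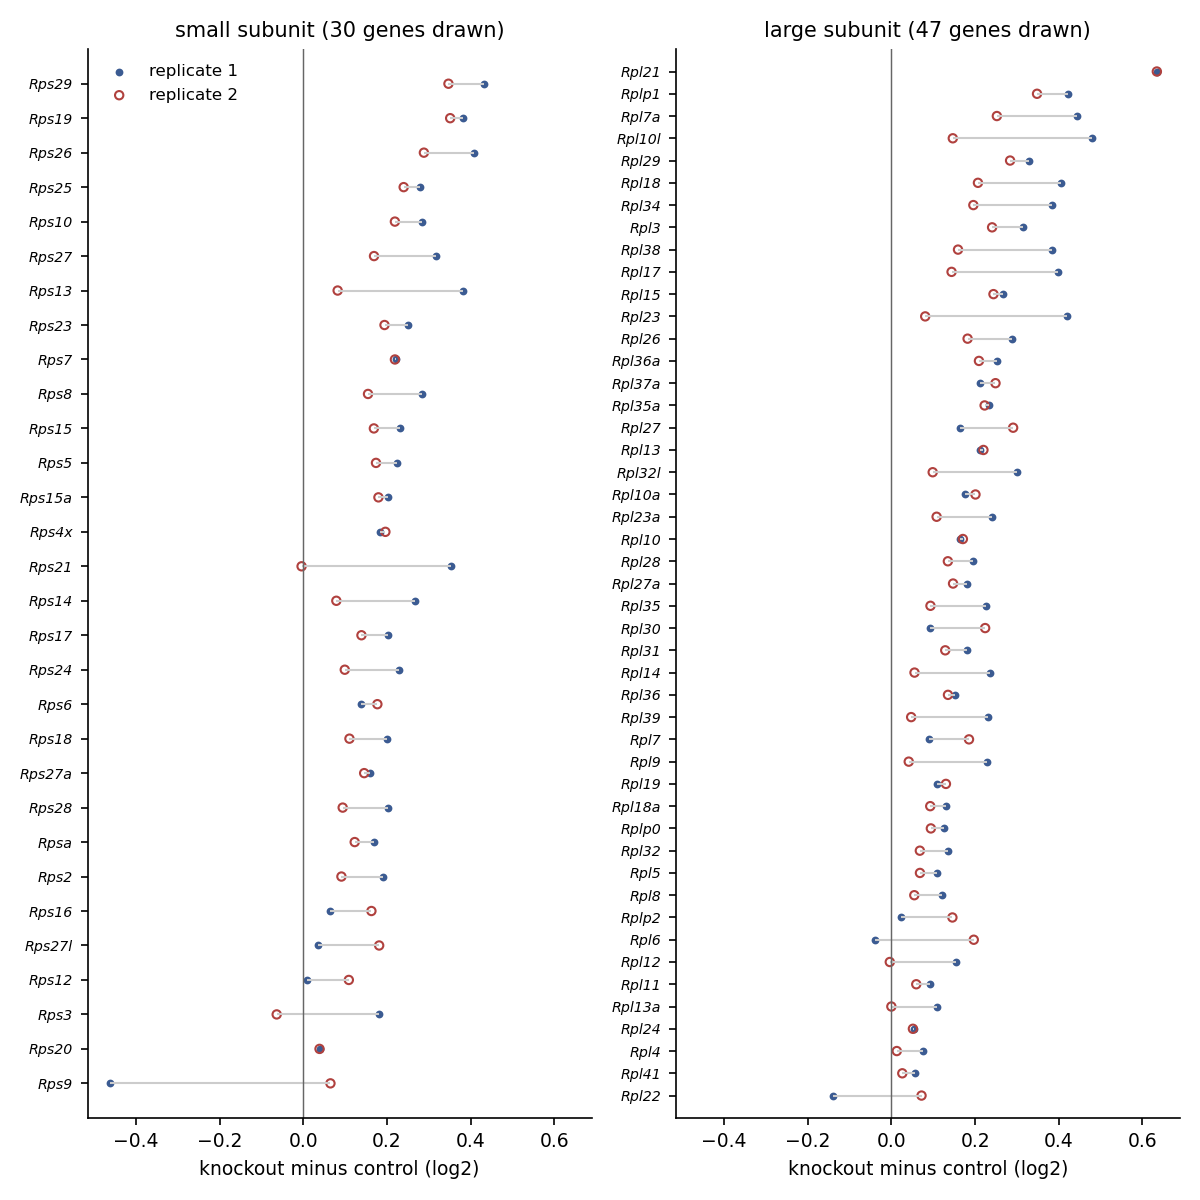
Knockout minus control (log2, x axis) for each member drawn, ranked by the mean of both replicates, with the small subunit left and the large subunit right. Filled points are replicate 1, open points replicate 2, and grey lines join them. Most pairs lie right of 0, from Rpl21 at 0.63 to Rps9, whose replicates stand at -0.46 and 0.07.

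The tract at the start did not part the members by size of difference. The 14 members with it had a median difference of 0.18, from 0.08 in Rplp2 to 0.27 in Rpl38, and the 44 with a table entry but no tract at the annotated start had 0.16. Of the members printed above, Rps6 differed by 0.14 and 0.18 in replicates 1 and 2, Rps18 by 0.20 and 0.11, and Rpl35 by 0.23 and 0.09. Differences of members with the tract lay within the range of the other members.

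The small difference was spread over probes. Ribosomal protein genes have many processed pseudogenes of nearly the same sequence, so a probe may also catch related transcripts, and single genes are uncertain to that extent. The 164 member probes past the filter had a median difference of 0.17. Of them, 145 were higher in the knockout in both replicate numbers, 4 lower in both and 15 mixed. Among the 51 members with several such probes, every probe was higher in both replicate numbers in 37. The other 27 members rest on 1 probe each.

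Ribosomal genes under names outside the symbol rule lay mostly on the same side as the members. Of 7, 6 were higher in both replicate numbers and 0 lower, with a median of 0.20 (0.21 and 0.12). Rps3a1, a core protein of the small subunit, differed by 0.24 (0.32 and 0.16). Rack1, the scaffold on the head of the small subunit, differed by 0.24 (0.36 and 0.12). Rpl22l1, the paralog of Rpl22, had the largest difference of the 7, at 0.33 (0.21 and 0.45). None passed the test in either fit (limma; smallest adjusted p with the replicate block, 0.322). Fau, a ribosomal protein made as a fusion with a ubiquitin-like protein, differed by 0.04.

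Mitochondrial ribosomal proteins, encoded in the nucleus and used in a separate ribosome, lay mostly on that side too. Of 78 measured, 55 were higher in both replicate numbers and 8 lower, with a median of 0.15 (0.17 and 0.12), and 0 passed over all genes in either fit. At an unadjusted p under 0.05, limma held 0 of them without the block and 16, all higher, with it, where 7.42% of all genes were higher. Mrpl48 was at 2.27 and 2.71 in the controls and at 2.86 and 3.14 in the knockouts, Mrpl49 differed by 0.42 and 0.53, and Mrpl41 by 0.46 and 0.24. No test of a difference between the families was made.

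Factors that act with the ribosome had a smaller median difference. Of 37 translation initiation and elongation factors, 24 were higher in both replicate numbers and 3 lower, with a median of 0.12 (0.10 and 0.13). Eif4b, a cofactor of the cap-binding helicase, differed by 0.28 (0.35 and 0.20), the helicase Eif4a1 by 0.28 (0.41 and 0.16), and Eef1g, a subunit of an elongation factor, by 0.28 (0.41 and 0.14). None of the 37 passed over all genes (limma; smallest adjusted p with the replicate block, 0.277). At an unadjusted p under 0.05 there were 0 without the block and 7, all higher, with it, against the same 7.42%.

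The machinery that builds ribosomes showed no common side. Of 53 ribosome biogenesis factors, 22 were higher in both replicate numbers and 13 lower, with a median of 0.04 in each replicate number; over all genes the medians were 0.03 and 0.02. Nop10, a component of pseudouridine-guiding particles, differed by 0.42 (0.57 and 0.27), Ltv1, an assembly factor of the small subunit, by 0.28 (0.25 and 0.30), and Heatr1, needed for ribosomal RNA transcription, by -0.24 (-0.27 and -0.21). Of 29 RNA polymerase I and III genes, which transcribe ribosomal and transfer RNA, 11 were higher and 7 lower in both, with a median of 0.08 (0.03 and 0.11). Polr1d, a subunit that both polymerases share, differed by 0.42 (0.43 and 0.40), Polr3g by 0.72 (1.11 and 0.34), and Twistnb, an RNA polymerase I subunit, by -0.37 (-0.35 and -0.40). None of these genes passed over all genes (limma; smallest adjusted p with the replicate block, 0.112 for a polymerase gene and 0.268 for a biogenesis factor). At an unadjusted p under 0.05, without the block, limma held 0 of either list; with it, 5 biogenesis factors were higher and 2 lower, and 3 polymerase genes were higher and 1 lower, near the shares over all genes (7.42% higher, 4.97% lower).

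Genes that control translation did not shift together, but a pair of them were called with the slide block. Of 23 measured, 4 were higher and 4 lower in both replicate numbers, with medians of -0.12 in replicate 1 and 0.11 in replicate 2. Mycn, a Myc-family factor that drives ribosomal genes in other tissues, was at 0.20 and -0.63 in the controls and at 1.29 and 0.73 in the knockouts, and it rose by 1.23 (limma with the replicate block, adjusted p = 0.0456; without it, adjusted p = 1.0). Both knockout arrays lay above both controls. Eif2ak2, the kinase PKR that halts initiation on double-stranded RNA and is itself induced by interferon, was at 3.54 and 2.61 in the controls and at 2.39 and 1.67 in the knockouts. It differed by -1.04 and fell in the blocked fit (limma, adjusted p = 0.0303; without the block, adjusted p = 1.0). Both calls were lost without the intensity trend, where the blocked fit called no gene. Myc differed by -0.30 and 0.09 and Larp1, the tract-binding protein, by -0.06 and 0.11, so neither kept a side. Eif2ak3, the kinase PERK of the unfolded protein response, differed by -1.28 and -0.04.

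**Figure D4:**
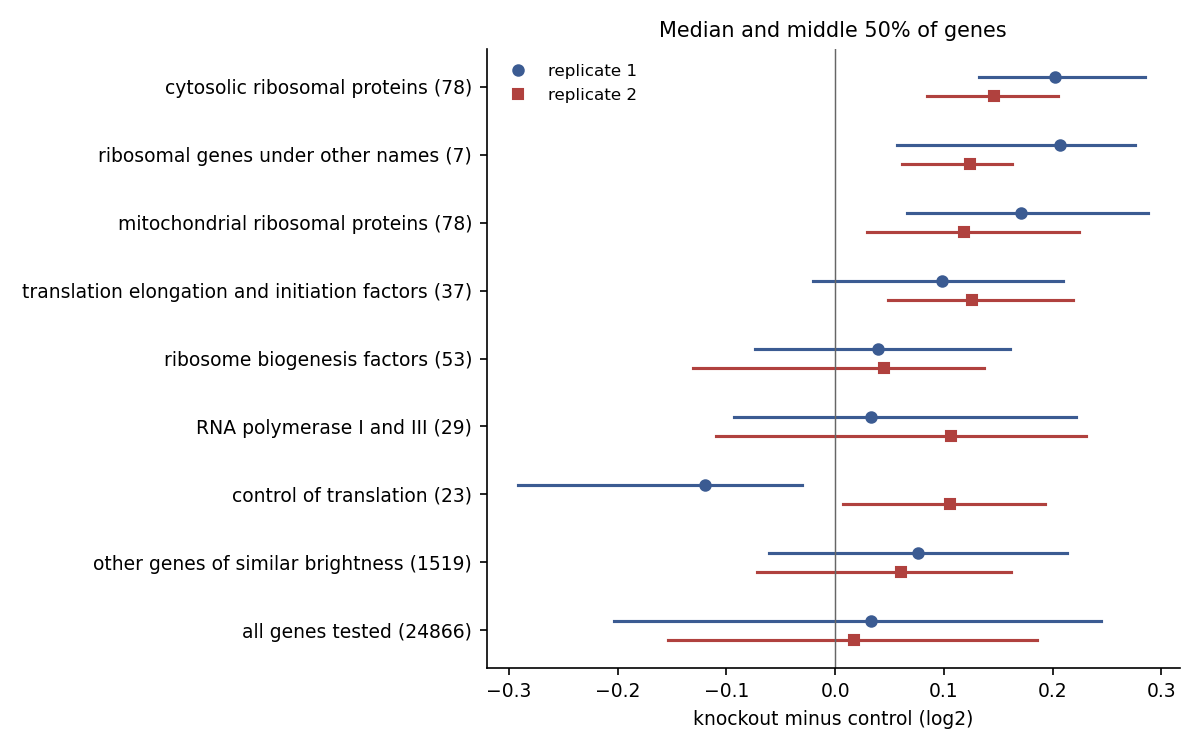
Knockout minus control (log2, x axis) for gene groups (y axis, number of genes in brackets); points are medians and bars the middle 50% of genes, blue for replicate 1 and red for replicate 2. The members stand at 0.20 and 0.15, the mitochondrial ribosomal proteins at 0.17 and 0.12, the biogenesis factors at 0.04 in each, and all genes tested at 0.03 and 0.02.

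Markers of other cells moved between the groups beside the members. Summed over a list, signal is given relative to the array's 75th percentile. The 7 measured of 9 Paneth cell markers, all lower in both replicate numbers, summed to 465 and 594 in the controls and to 120 and 193 in the knockouts. The 6 enteroendocrine markers, 5 of them lower in both, summed to 7.72 and 11.6 in the controls and to 4.30 and 6.79 in the knockouts. The 8 enterocyte markers, 6 of them higher in both, summed to 53.2 and 62.6 in the controls and to 73.6 and 79.7 in the knockouts. In these 3 lists the groups did not overlap, unlike in the members. Their part in the shift of the members was not tested.

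The sums of the other marker lists described next overlapped between the groups. The 8 stem cell markers, 5 of them higher and 1 lower in both replicate numbers, summed to 97.6 and 107 in the controls and to 99.5 and 108 in the knockouts. Most of that sum came from the Slc12a2 probe, at 5.71 to 6.09 over the arrays, which was the lower 1. The largest difference in the list was that of Tnfrsf19, higher by 0.66 and 0.68 in replicates 1 and 2 without passing. The 7 goblet cell markers, 2 of them lower and 1 higher in both replicate numbers, summed to 140 and 143 in the controls and to 110 and 152 in the knockouts. Most of that sum came from the Fcgbp probe, at 6.37 to 6.57 over the arrays. Spink4 (-2.00 and -1.10 in replicates 1 and 2) and Muc2 (-1.64 and -0.12) were the lower ones. Zg16 (0.11 and 0.89) was the higher, and none of the 7 passed in either fit. The 8 immune markers summed to 243 and 354 in the controls and to 225 and 351 in the knockouts, most of it from the Itgam probe, which was at 7.67 to 8.36 on all arrays. That probe is the brightest of 3 kept for the gene, and whether it also catches other transcripts was not tested. The macrophage lysozyme gene Lyz2, in the same list, was at 2.04 and 2.56 in the controls and at -0.78 and 0.10 in the knockouts, and it fell 6.23-fold in the blocked fit (limma with the replicate block, adjusted p = 0.00675; without it, adjusted p = 0.294). Lyz1 of the Paneth list is a close relative, and a probe may catch both. Among the other immune markers, Cd8a was higher in both replicate numbers without passing, by 0.65, from dim levels in both groups. Cd3e, brighter in both groups, kept no side, with 0.08 in replicate 1 and -0.07 in replicate 2. Cd3g was well above background on only 2 arrays, so it passed the filter through 1 group. Its difference of 0.83 is therefore not counted as a rise. Ptprc, which defines leukocytes, was at -1.68 and -1.32 in the controls and at -1.65 and -1.21 in the knockouts. The 4 tuft, 2 of 5 stromal and 2 of 3 erythroid markers that were measured summed to at most 2.73, 0.51 and 0.78. The 1 measured endothelial marker, Kdr, was at 2.38 to 2.59 over the 4 arrays.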

How the data were processed

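RNA of the 4 samples was amplified, labelled with Cy3 and hybridised to single-colour Agilent mouse arrays, per the labels' protocols. The authors deposited spot intensity from Agilent Feature Extraction (12.0.3.1 per the file headers, 11.5.1.1 per the submitters' processing notes), background-subtracted and on a linear scale. A deposited table of the series holds the same intensity times 1 constant per array (5.60 to 6.68), and its column medians were 249 and 231 for control and 239 and 223 for knockout. The target of that scaling is unknown, and the table served as an alternative.

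Here control spots and outlier flags were left out, spots of a probe averaged, and log2 values scaled to each array's 75th percentile. A probe was kept if well above background on both arrays of a group, which left 35422 of 55681 probes. RefSeq accessions named 28331 probes through GRCm38.p6. The array design follows another build, so no array coordinates are given.

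Groups were compared with limma 3.58.1 (R 4.3.3), with an intensity trend and Benjamini-Hochberg adjustment over all genes at 0.05, after a run on simulated data. The stated fit has no block. The replicate number is also the slide, per the file headers, and samples of a slide deviated together (r = 0.563 over all genes), so the blocked fit stands beside it. With 2 arrays against 2, an exact two-sided permutation test cannot go below p = 0.333. The number of arrays limits the precision. Named members were set by role and paralogy, plus the 4 largest differences in each direction on 1 side in both replicate numbers (0 members were lower in both), the 3 with the widest replicate gap and those called. Of each other list, up to 3 genes with the smallest p were named. Rpl15, Fau, Myc, Larp1, Itgam, Ptprc, Lyz2, Cd3e, Cd3g and Cd8a were added after their values were seen. So were Slc12a2, Tnfrsf19, Fcgbp, Spink4, Muc2 and Zg16. Some genes are counted but not reported by name here. Members, lists and rules were chosen with earlier results of these data known. Alternatives covered scaling, background correction, filters, the probe rule, outlier flags, the variance trend and each array left out.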

Additional observations from a re-analysis of the deposited data

How the results depend on the processing

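The cause of each change below was not tested. The replicate block raised the genes called from 0 to 113 and the members called from 0 to 1, Rpl21; at an adjusted p of 0.1 without the block, members called stayed at 0. Chosen after seeing the data, the replicate block was also combined with each other choice. It then called 143 genes with quantile scaling, 240 with median scaling, 335 with normexp, 155 with the authors' table, 879 without the filter on dim probes, 107 with probes above background on all arrays, 140 with the mean of probes, 101 with outlier spots kept and 0 without the intensity trend. Members called with the block were 2 with normexp, 5 without the filter, 0 with the mean of probes, 0 without the trend and 1 under the others. Leaving out 1 array gave 9 to 100 genes and 0 members. A lone array is then assumed to vary like the other group, and the slides are no longer balanced.

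The member median kept its direction under the other settings (0.13 to 0.18) and lay between -0.05 and 0.39 with 1 array left out. The small subunit ran from -0.04 to 0.38, the large from -0.06 to 0.40, the ribosomal genes under other names from -0.09 to 0.44, the mitochondrial from 0.05 to 0.24 and RNA polymerases from -0.0013 to 0.19. Translation factors were at 0.0559 with quantile scaling and between 0.0366 and 0.22 with 1 array left out. Biogenesis factors were at 0.000565 with quantile scaling, -0.00139 in the authors' table and -0.0124 to 0.0452 with 1 array left out; control of translation ran from -0.12 to 0.12. Members higher in both replicate numbers were 62 to 73 under the other settings, and quantile scaling put 1 (Rpl24, -0.01 and -0.0035) lower in both; these counts need all 4 arrays. Rpl13a was at -0.0139 with quantile scaling and Rpl22 at 0.17 with the mean of probes. With 1 array left out, Rplp0 ran from -0.18 to 0.40, Rplp2 from -0.23 to 0.40, Rpsa from -0.0279 to 0.32, Rps19 from -0.0398 to 0.77, Rpl5 from -0.14 to 0.32, Rpl11 from -0.24 to 0.39, Rpl10 from -0.0638 to 0.40, Rpl13a from -0.15 to 0.26, Rpl22 from -0.49 to 0.43, Rps27a from -0.046 to 0.35, Rpl39 from -0.0327 to 0.31, Rps4x from -0.11 to 0.49, Rps29 from -0.0057 to 0.78, Rps9 from -0.67 to 0.27, Rps21 from -0.11 to 0.46, Rpl23 from -0.22 to 0.72 and Rack1 from -0.13 to 0.62.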
